A study of Mus musculus with 11 samples.

Results

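The retinoid handling genes followed here are 7 genes chosen by symbol: Rbp4, Rbp7, Retsat, Adh1, Aldh1a1, Rara and Rarg. All 7 were listed in the deposited table, which holds 12787 genes. They were measured by RNA sequencing of gonadal white adipose tissue (WAT) from male C57Bl6/J mice kept on a 60% high fat diet (HFD) for 20 weeks. The 5 HFD control mice received the diet with no drug, and the 6 IMC-treated mice (HFD + IMC) received it with 0.06% w/w iodomethylcholine (IMC), a small molecule that blocks the gut microbial enzyme turning choline into trimethylamine. Each mouse gave 1 library, a sixth control had failed quality control and was dropped by the submitters, and both groups ate the high fat diet, so no lean group stands beside them here. The age at the start of the diet was not stated for the sequenced mice themselves.

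Vitamin A reaches tissues as retinol bound to the plasma carrier encoded by Rbp4, which is made by liver and by adipocytes. Inside cells retinol is held by small binding proteins, stored as esters, saturated, or oxidised by dehydrogenases, first to retinaldehyde and then to retinoic acid. Retinoic acid binds the nuclear receptors RAR, which pair with RXR on DNA and switch genes on or off, and adipose tissue is known both as a retinoid store and as a tissue in which retinoids affect fat cell formation and lipid use.

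Levels were read as CPM, the reads of a gene scaled to library size, or as their log2. In the IMC-treated mice 4 of the 7 genes were higher and 0 were lower, by limma at a Benjamini-Hochberg adjusted p under 0.05 over every gene tested. The genes that rose were the carrier Rbp4, the saturase Retsat and the oxidising enzymes Adh1 and Aldh1a1, by between 1.29-fold and 1.82-fold. The retinol binding protein Rbp7 and the receptors Rara and Rarg did not pass the test. The same limma test called 20% of all genes higher, 21.0% lower and 40.9% in either direction. The median log2 fold change of the 7 genes was 0.37, beside -0.03 over all genes. The values of Retsat and Aldh1a1 did not overlap between the groups, all 6 IMC-treated mice lying above all 5 controls, which was the case for 12.5% of all genes (23.1% lay without overlap in either direction).

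**Figure D1:**
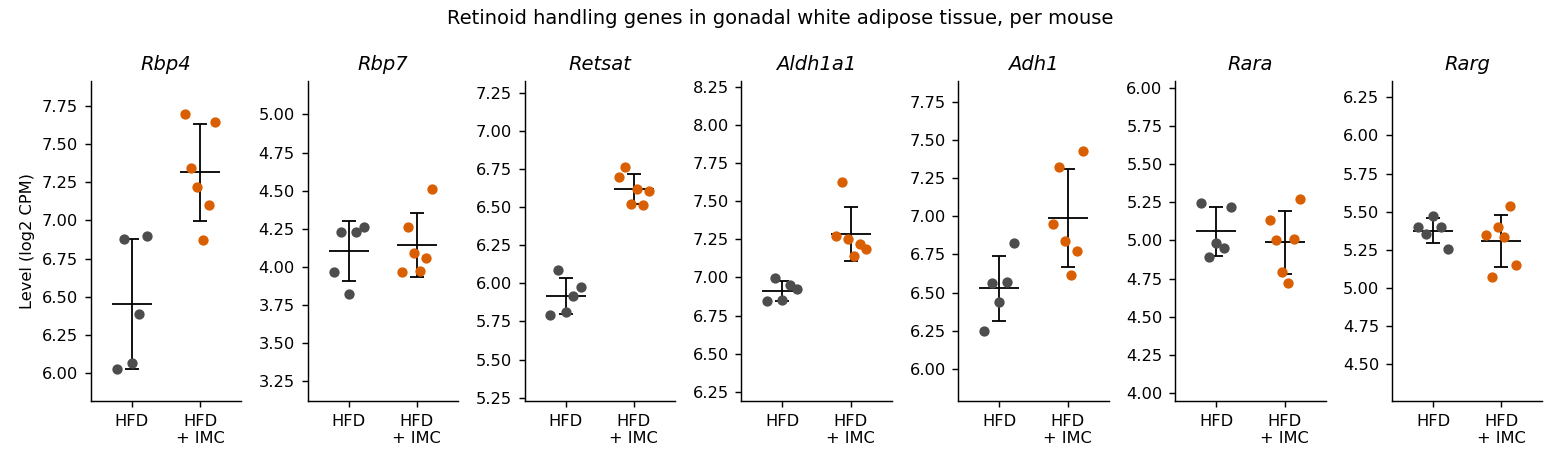
Level of each retinoid handling gene in log2 CPM, with 1 point per mouse, HFD in grey and HFD + IMC in orange, and a line and bars for the mean and SD (n = 5 and n = 6). Each panel spans the same number of log2 units. The groups lie apart for Retsat and Aldh1a1, share a narrow zone for Rbp4 and a wider one for Adh1, and lie over each other for Rbp7, Rara and Rarg.

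The promoters of the 4 genes that rose are shown so that the start of each transcript can be read beside its values. The sequences are RefSeq promoters of assembly GRCm38.p6, the build the reads were aligned to, from 250 bases before to 50 bases after the annotated start, written 5′ to 3′ on the gene's strand, with matches to 4 searched motifs in capitals. The motifs were TATAAA (the TATA box), the CCAAT box, GGGCGG (the GC box of Sp1-like factors) and the E-box CACGTG. They were searched on both strands, and in the Rbp4 window GGGCGG is read on the other strand. For Rbp4 and Aldh1a1 the table gives 2 start sites and the second is printed. The first Rbp4 window held neither TATAAA nor GGGCGG, only CCAAT from base -162 counted from its start site. The first Aldh1a1 window held no match. Which start site is used in this tissue was not tested.
Retsat, chr6:72598352-72598651, plus strand: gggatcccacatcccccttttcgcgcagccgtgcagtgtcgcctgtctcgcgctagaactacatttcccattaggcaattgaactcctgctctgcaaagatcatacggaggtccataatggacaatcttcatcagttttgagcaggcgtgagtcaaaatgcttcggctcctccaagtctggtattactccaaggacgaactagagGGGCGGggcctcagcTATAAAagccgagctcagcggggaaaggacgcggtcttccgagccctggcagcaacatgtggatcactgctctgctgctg
Rbp4, chr19:38124762-38125061, minus strand: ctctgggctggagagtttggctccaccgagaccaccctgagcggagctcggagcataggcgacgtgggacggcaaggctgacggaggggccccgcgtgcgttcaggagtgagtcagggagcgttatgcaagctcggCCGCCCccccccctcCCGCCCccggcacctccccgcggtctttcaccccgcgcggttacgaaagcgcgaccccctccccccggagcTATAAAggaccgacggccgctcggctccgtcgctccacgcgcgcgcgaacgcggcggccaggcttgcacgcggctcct
Adh1, chr3:138277335-138277634, plus strand: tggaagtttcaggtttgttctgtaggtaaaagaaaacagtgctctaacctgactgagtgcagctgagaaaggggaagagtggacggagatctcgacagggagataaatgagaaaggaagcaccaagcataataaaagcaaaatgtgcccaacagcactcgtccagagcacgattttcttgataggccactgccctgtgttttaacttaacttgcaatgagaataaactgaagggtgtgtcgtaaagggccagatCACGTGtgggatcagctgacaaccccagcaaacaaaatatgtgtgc
Aldh1a1, chr19:20601718-20602017, plus strand: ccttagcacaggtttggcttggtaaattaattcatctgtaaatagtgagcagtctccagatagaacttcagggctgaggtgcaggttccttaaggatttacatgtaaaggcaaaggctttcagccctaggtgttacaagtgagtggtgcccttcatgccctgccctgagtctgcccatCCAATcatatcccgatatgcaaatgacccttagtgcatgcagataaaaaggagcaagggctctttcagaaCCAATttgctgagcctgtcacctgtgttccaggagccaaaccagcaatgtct
The Retsat promoter held TATAAA from base -30 and GGGCGG from base -45, counted from the start site. The printed Rbp4 promoter held the same pair of motifs, with TATAAA from base -28 and GGGCGG matches from bases -114 and -99. Of all 32851 promoters in the table, 13.6% held TATAAA and 35.7% held GGGCGG. The Adh1 promoter held neither, and its 1 match was CACGTG from base 5, a motif found in 7.15% of all promoters. The printed Aldh1a1 promoter had CCAAT from bases -72 and -2, a motif found in 37.4% of all promoters. Across the 13 start sites listed for the 7 genes, TATAAA was found at 2, CCAAT at 4, GGGCGG at 7 and CACGTG at 3. The windows of Rara start sites 1 and 2 overlap, and the same matches are counted at both. Counted by gene, these motifs were found, in the same order, in 2, 3, 5 and 2 of the 7 genes. The single half-site AGGTCA, part of the sequences that nuclear receptors bind, was found at 2 of the 13, and 16.3% of all promoters hold it. Direct repeats of this half-site or close variants of it, named DR1, DR2 and DR5 after a spacing of 1, 2 or 5 bases, were found at 0 of the 13 start sites, and at 0.222%, 0.268% and 0.0974% of all promoters for the 3 repeats. A match of letters is a description of the window. The GC content of the printed windows was 72.0% for Rbp4, 54.7% for Retsat, 47.0% for Aldh1a1 and 45.3% for Adh1, beside a median of 52.7% over all promoters.

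Rbp4 (gene on chromosome 19 from 38116620 to 38125321, minus strand, GRCm38.p6) encodes the plasma retinol carrier, also an adipokine. Its level was 65.2, 118, 66.9, 83.9 and 119 CPM in HFD mice 1 to 5. In the IMC-treated mice it was 117 CPM at the lowest, 156 CPM at the median and 208 CPM at the highest. HFD mice 2 and 5 stood above the other 3 controls, and 5 of the 6 IMC-treated mice lay above every control. On the log2 scale the mean was 6.45 ± 0.42 (SD, n = 5) in controls and 7.31 ± 0.32 (SD, n = 6) with IMC. That is a log2 fold change of 0.86 (SE 0.19, 95% confidence interval 0.46 to 1.27), or 1.82-fold, with a limma adjusted p of 0.00286 after Benjamini-Hochberg. The two-sided exact permutation test over every division of the mice into 5 and 6 gave p = 0.00866. Rbp4 had the largest fold change of the 7 genes and the widest SD of the 7 among controls. Between 1449 and 4870 reads per mouse lay behind these values.

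Rbp7 (chromosome 4, 149449687 to 149466462, minus strand) encodes an intracellular retinol binding protein known from adipose tissue. Its level was 15.6, 18.8, 14.2, 18.7 and 19.2 CPM in HFD mice 1 to 5. It ranged from 15.7 to 22.9 CPM with a median of 16.9 CPM in the IMC-treated mice. The ranges of the groups lay over each other, with 1 of 6 IMC-treated mice above all controls. The log2 fold change of Rbp7 was 0.04 (SE 0.11) with a confidence interval from -0.20 to 0.28, and limma gave an adjusted p of 0.787 with Benjamini-Hochberg. It was the least abundant of the 7 genes in reads, with 337 to 555 per mouse, and its interval overlaps 1 annotated pseudogene, Trmt112-ps2.

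The log2 ratio of the plasma carrier gene Rbp4 to Rbp7 within a mouse, which does not depend on how a library is scaled, was tested directly. This ratio was 2.35 ± 0.27 (SD, n = 5) in the HFD group and 3.17 ± 0.29 (SD, n = 6) in the HFD + IMC group. All 6 IMC-treated mice had a higher ratio than every control. The difference of 0.82 had an exact permutation p of 0.00216, the smallest that 5 mice against 6 allow, and of 0.00866 after Benjamini-Hochberg adjustment over the 4 ratios tested.

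Retsat (chromosome 6, 72598602 to 72607488, plus strand) encodes retinol saturase, which reduces a double bond of retinol to give dihydroretinol and is known as a PPARγ target in adipocytes. Its level was 55.4, 67.9, 56.1, 60.5 and 62.9 CPM in HFD mice 1 to 5. The IMC-treated mice had 91.2 CPM at the lowest, 97.6 CPM at the median and 108 CPM at the highest. The lowest IMC-treated mouse stood well above the highest control, HFD mouse 2. The mean log2 CPM was 5.92 ± 0.12 (SD, n = 5) in controls and 6.62 ± 0.10 (SD, n = 6) with IMC. The log2 fold change of Retsat was 0.70 (SE 0.06, 95% confidence interval 0.57 to 0.84), or 1.63-fold, and its limma p after Benjamini-Hochberg adjustment was 2.67e-05. The exact permutation p was 0.00216. By p, Retsat ranked 17 of the 12787 genes, while Rbp4, with the larger fold change, ranked 2110. The log2 ratio of Retsat to Rbp4 was -0.54 ± 0.31 (SD, n = 5) in the HFD group and -0.70 ± 0.29 (SD, n = 6) with IMC, a difference of -0.16 (exact permutation p = 0.396, and 0.792 after Benjamini-Hochberg adjustment over the 4 ratios).

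Adh1 (chromosome 3, 138277585 to 138290698, plus strand) encodes a class I alcohol dehydrogenase that oxidises retinol to retinaldehyde as well as ethanol. Its level was 75.9, 94.6, 86.7, 94.9 and 114 CPM in HFD mice 1 to 5. It was 97.8 CPM at the lowest, 119 CPM at the median and 172 CPM at the highest in the IMC-treated mice. IMC mice 2 and 6 stood above the other treated mice, and 4 of the 6 lay above every control. The mean log2 CPM was 6.53 ± 0.21 (SD, n = 5) in controls and 6.99 ± 0.32 (SD, n = 6) with IMC. The log2 fold change of Adh1 was 0.46 (SE 0.14, 95% confidence interval 0.15 to 0.76), or 1.37-fold, with a limma adjusted p of 0.0210 after Benjamini-Hochberg and an exact permutation p of 0.0216. This call did not hold in every fit with 1 mouse left out. Without HFD mouse 1, the lowest for Adh1, the log2 fold change was 0.39 and the limma adjusted p 0.0587 after Benjamini-Hochberg. In that fit 33.8% of all genes were called, beside 40.9% with all mice. Without HFD mouse 3 the log2 fold change was 0.43 and the limma adjusted p 0.0495 after Benjamini-Hochberg.

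Aldh1a1 (chromosome 19, 20492583 to 20643463, plus strand) encodes a retinaldehyde dehydrogenase that forms retinoic acid. Its level was 115, 128, 115, 124 and 121 CPM in HFD mice 1 to 5. The IMC-treated mice had 141 CPM at the lowest, 151 CPM at the median and 198 CPM at the highest. IMC mouse 2 stood far above the other 5, and the remaining treated mice still lay above every control. The mean log2 CPM was 6.91 ± 0.07 (SD, n = 5) in controls and 7.28 ± 0.18 (SD, n = 6) with IMC. The log2 fold change of Aldh1a1 was 0.37 (SE 0.08, 95% confidence interval 0.21 to 0.53), or 1.29-fold, with a limma adjusted p of 0.00203 after Benjamini-Hochberg and an exact permutation p of 0.00216. The close paralogue Aldh1a7 shared 3.06% of the 50-base windows of the Aldh1a1 exons. Reads within these windows alone do not tell the genes apart. Aldh1a7 rose by 0.62 (SE 0.10, limma adjusted p = 0.000566 with Benjamini-Hochberg). With the reads of both added together, the difference was 0.49 on the log2 scale without overlap between groups (exact permutation p = 0.00216). The Aldh1a1 interval, introns included, overlaps 3 other annotated genes. The strand setting of the count was not given in the sources used here. Whether reads of these genes were counted with Aldh1a1, or reads of Aldh1a1 were lost to them, was not tested.

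The oxidising enzymes were also compared with each other. The log2 ratio of Adh1 to Aldh1a1 was -0.38 ± 0.18 (SD, n = 5) and -0.30 ± 0.27 (SD, n = 6), and its difference of 0.09 did not exceed the spread of the mice (exact permutation p = 0.610, and 0.814 after Benjamini-Hochberg adjustment over the 4 ratios). IMC mouse 6, the highest for Adh1, had a ratio of 0.24, and the other 5 treated mice lay between -0.53 and -0.31.

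Rara (chromosome 11, 98927800 to 98974942, plus strand) and Rarg (chromosome 15, 102234938 to 102257522, minus strand) encode the retinoic acid receptors alpha and gamma. Rara had 37.9, 29.7, 31.7, 30.9 and 37.3 CPM in HFD mice 1 to 5. In the treated mice Rara ranged from 26.3 to 38.6 CPM around a median of 32.1 CPM, over and beyond the range of the controls. Its log2 fold change was -0.07 (SE 0.10) with a confidence interval from -0.29 to 0.15 (limma adjusted p = 0.611 with Benjamini-Hochberg). The Rara interval overlaps 2 other annotated genes. Rarg had 42.2, 40.8, 44.4, 42.3 and 38.1 CPM in HFD mice 1 to 5. In the treated mice Rarg ranged from 33.6 to 46.5 CPM around a median of 40.5 CPM, again on both sides of the controls. Its log2 fold change was also -0.07 (SE 0.08), with a confidence interval from -0.24 to 0.10 and a limma adjusted p of 0.504 with Benjamini-Hochberg. The intervals of both receptors leave out a rise as large as that of Retsat. The log2 ratio of Rara to Rarg was -0.32 ± 0.21 (SD, n = 5) in the HFD group and -0.32 ± 0.31 (SD, n = 6) with IMC (exact permutation p = 0.996, before and after Benjamini-Hochberg adjustment over the 4 ratios).

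The levels of the genes were set side by side per length of their exons, in CPM per kilobase. Rbp4 had the highest level in both groups, with 67.5 ± 19.8 CPM per kilobase (SD, n = 5) in controls and 121 ± 26.6 (SD, n = 6) in treated mice. Adh1 followed with 41.7 ± 6.18 and 58.0 ± 13.3 CPM per kilobase, and Aldh1a1 with 24.4 ± 1.11 and 31.7 ± 4.19. Rbp7, whose short transcript gave few reads, came close to Aldh1a1 on this scale with 24.1 ± 3.16 and 24.9 ± 3.85 CPM per kilobase. In the controls Aldh1a1 and Rbp7 did not differ beyond their spread, since Aldh1a1 was the higher of them in 2 of 5 mice. Retsat stood at place 5 in controls with 17.1 ± 1.45 CPM per kilobase and at place 4 in treated mice with 27.8 ± 1.88. There Retsat exceeded Rbp7 in 5 of 6 mice, by a mean log2 difference of 0.17 ± 0.22 (SD), which is within the spread. The receptors were lowest, Rarg with 9.75 ± 0.54 and 9.34 ± 1.09 and Rara with 7.67 ± 0.88 and 7.33 ± 1.04 CPM per kilobase. Rarg was above Rara in 5 of 5 controls and in 5 of 6 treated mice, where the gap did not exceed its spread.

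**Figure D2:**
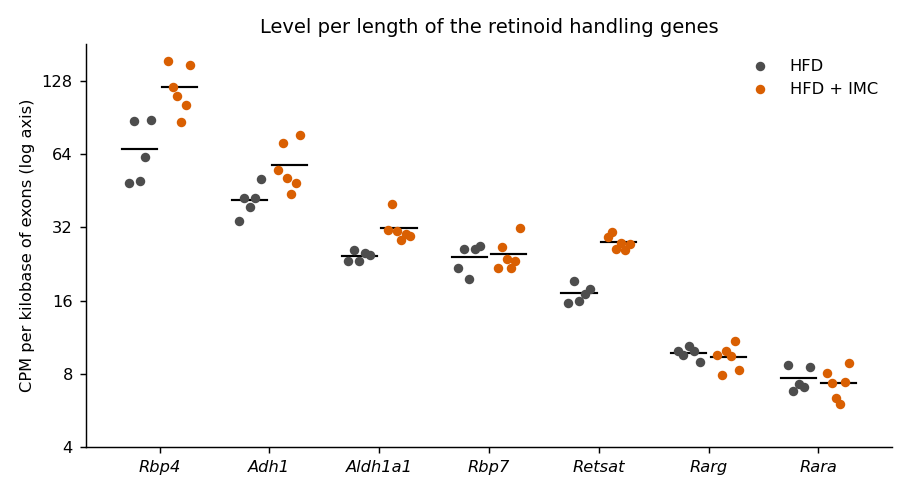
Level per length of the retinoid handling genes, in CPM per kilobase of exons on a log axis, with 1 point per mouse, HFD in grey, HFD + IMC in orange, and a line at each group mean. Rbp4 lies at the top with 67.5 and 121 CPM per kilobase and Rara at the bottom with 7.67 and 7.33.

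Single mice kept a like place for several of the genes. Among the controls, HFD mouse 1 was lowest for Rbp4, Retsat, Aldh1a1 and Adh1 and highest for Rara. HFD mouse 5 was highest for Rbp4, Rbp7 and Adh1 and lowest for Rarg. Among the treated mice, IMC mouse 4 was lowest for Rbp4, Aldh1a1, Adh1 and Rara, and IMC mouse 6 was highest for Rbp7, Adh1 and Rara. Because these are values of whole tissue, more cells of a type and more RNA per cell of that type cannot be told apart.

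Cell type markers were read beside these genes. Of all genes 20% were called higher and 21.0% lower, and 10.5% were lower without overlap. The counts of markers are to be read beside these shares. All 14 of 14 adipocyte markers, such as Adipoq and Plin1, were higher with IMC, and their summed level was 11044 to 16036 CPM in controls and 21903 to 26219 CPM in treated mice. Of 12 macrophage markers 10 were lower, with summed levels of 8290 to 10913 CPM in controls and 4812 to 7339 CPM in treated mice. Of 10 progenitor and fibroblast markers 7 were lower (9329 to 11989 CPM in controls, 7191 to 9413 CPM in treated mice), and of 12 endothelial markers 3 were higher (606 to 832 CPM, then 706 to 992 CPM), near the 20% of all genes called higher. The exact permutation p of the summed endothelial level was 0.0779. All 7 listed mast cell markers were lower without overlap, with a median log2 fold change of -1.42 and summed levels of 507 to 1157 CPM in controls and 161 to 326 CPM in treated mice. Of 4 listed skeletal muscle markers 3 were higher (18.8 to 28.4 CPM, then 41.7 to 68.0 CPM), with a median log2 fold change of 1.01. Of 6 listed mesothelial markers 1 was lower (273 to 379 CPM, then 126 to 322 CPM), the 1 listed lymphocyte marker did not pass, and 0 of 8 epididymis markers were listed. The part of these shifts in the levels of the retinoid genes was not tested. Liver markers bear on Rbp4, since hepatocytes also make it. Of 8 hepatocyte markers 3 were higher, beside the 20% of all genes called higher. Their summed levels were 142 to 184 CPM in controls and 175 to 277 CPM in treated mice over the 8 markers. The median log2 fold change of the 8 markers was 0.16. Cyp2e1, one of the 3 higher markers, had a log2 fold change of 0.84 (SE 0.27, limma adjusted p = 0.0228 with Benjamini-Hochberg). Serpina1a had one of 0.71 (SE 0.20, adjusted p = 0.0121 by limma and Benjamini-Hochberg). It lay at a low level, with 0.26 ± 0.15 log2 CPM (SD, n = 5) in controls and 23 to 61 reads per mouse. The third, Apoa1, had one of 0.26 (SE 0.09, adjusted p = 0.0300 by limma and Benjamini-Hochberg). The other 5 did not pass, with log2 fold changes from 0.03 for Fgb to 0.18 for Fga. Among them albumin (Alb) had a log2 fold change of 0.14 (SE 0.07, limma adjusted p = 0.121 with Benjamini-Hochberg). Ttr, the plasma partner of Rbp4, had one of 0.15 (SE 0.12, limma adjusted p = 0.335 with Benjamini-Hochberg). The part of hepatocyte RNA in the level of Rbp4 was not tested.

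The level of each gene was therefore also read relative to the mean log2 CPM of the 14 adipocyte markers in the same mouse. That mean was 8.12 ± 0.27 (SD, n = 5) in controls and 9.03 ± 0.13 (SD, n = 6) in treated mice. On this relative scale the means of Rbp4 were close, at -1.67 ± 0.16 (SD, n = 5) and -1.71 ± 0.20 (SD, n = 6). The difference of Rbp4 was -0.04 with a confidence interval from -0.32 to 0.24 (limma adjusted p = 0.759 with Benjamini-Hochberg over all genes). Within the groups the order of mice was alike too, HFD mice 2 and 5 being the highest controls for the markers and for Rbp4. Retsat had a relative difference of -0.20 with a confidence interval from -0.47 to 0.07 (limma adjusted p = 0.139 with Benjamini-Hochberg, exact permutation p = 0.0455 without adjustment).
The other 5 genes were lower relative to the markers. Aldh1a1 differed by -0.54 (SE 0.14) and Adh1 by -0.45 (SE 0.14), with limma adjusted p of 0.000613 and 0.00376 after Benjamini-Hochberg. Rbp7 differed by -0.86 (SE 0.15), Rara by -0.98 (SE 0.15) and Rarg by -0.97 (SE 0.16). For these 3 genes all 6 treated mice lay below every control (exact permutation p = 0.00216 for each). The marker mean itself was higher in all 6 treated mice than in every control. The share of all genes without overlap on this scale was not counted. By relative difference, 61.1% of all genes lay below Rbp7, 42.5% below Rara and 42.7% below Rarg. For Rbp4, Retsat, Adh1 and Aldh1a1 these shares were 97.8%, 96.1%, 91.2% and 88.1%. On this scale limma called 94.2% of all genes, 93.9% lower and 0.274% higher, so a lower relative level was the rule across the table. The direction of Adh1 and Aldh1a1 thus depended on the scale, higher by library and lower by adipocyte marker.

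**Figure D3:**
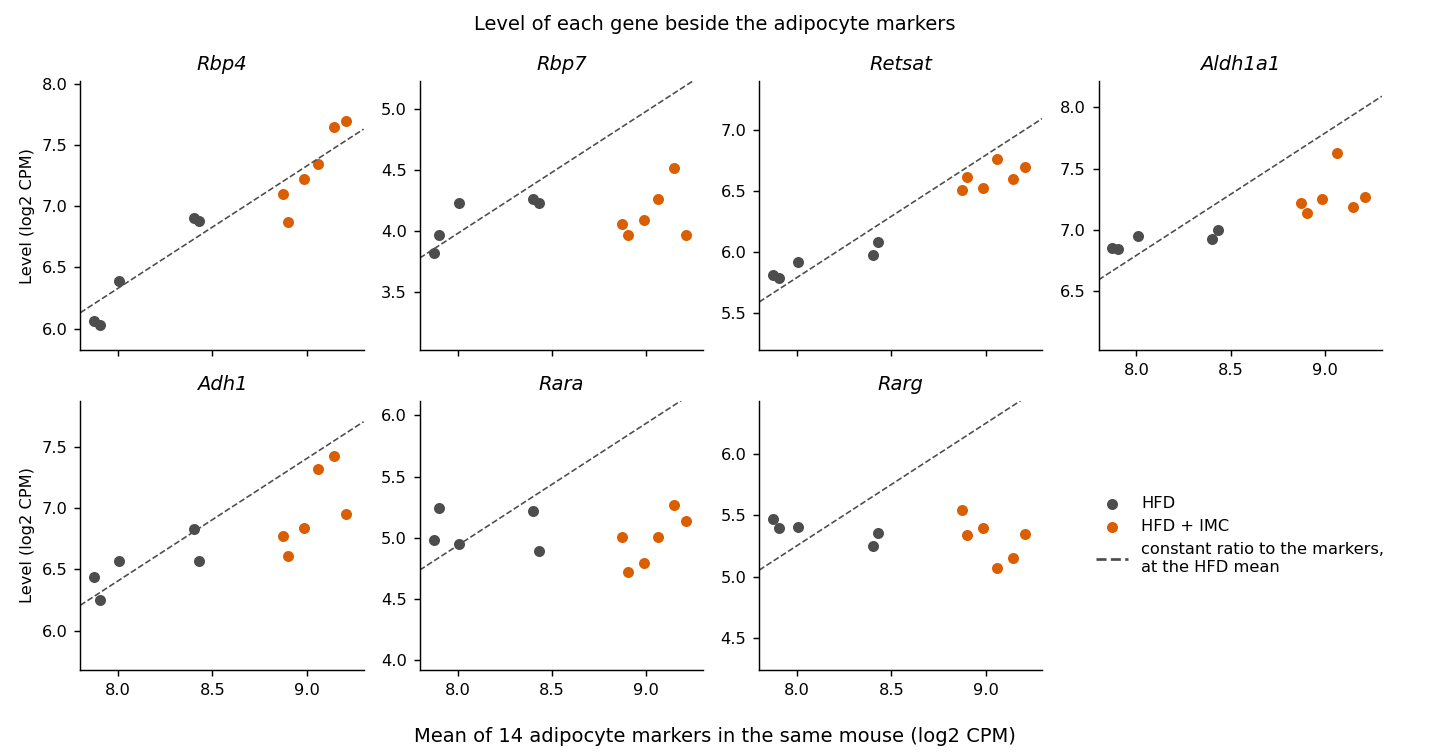
Level of each retinoid handling gene (log2 CPM) against the mean of 14 adipocyte markers in the same mouse (log2 CPM), HFD in grey and HFD + IMC in orange. The dashed line is a constant ratio to the markers at the HFD mean. Rbp4 lies along the line in both groups, Retsat just under it with IMC, and the treated mice of Rbp7, Rara and Rarg lie far under it.

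Other genes of the retinoid pathway came from a wider list of 58 genes, of which 38 were listed in the table. Of these 14 were higher, 4 lower and 20 not called by limma, and their median log2 fold change was 0.09. Over all genes the same test called 20% higher, 21.0% lower and 40.9% in either direction, and the counts of the wider list and its groups are to be read beside these shares. The counts without overlap were 11 higher and 1 lower, patterns shown by 12.5% and 10.5% of all genes. Without HFD mouse 1, 2 or 3, or without IMC mouse 1 or 2, the count of lower genes was 2.

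Among 11 further binding and transport genes 4 were listed, and limma called 0 of them at the adjusted threshold and 0 at an unadjusted p under 0.05. Ttr, Scarb1, Fabp5 and Stra6l, the last a receptor related to the Rbp4 receptor, had log2 fold changes from -0.19 to 0.15. The Rbp4 receptor gene Stra6 and the retinoic acid binding protein genes Crabp1 and Crabp2 were not listed in the table.

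Of 29 further enzyme genes 19 were listed, and 6 rose, 3 fell and 10 did not pass, so that 9 of 19 were called where 40.9% of all genes were. The risers were Aox1, an aldehyde oxidase, with a log2 fold change of 0.74 (SE 0.07), Dgat1, an acyltransferase that can esterify retinol, with 0.66 (SE 0.10), and Aldh1a7 with 0.62. The ketoreductase gene Dhrs4 rose by 0.46 (SE 0.07) and the class III alcohol dehydrogenase gene Adh5 by 0.13 (SE 0.04) on the log2 scale. Cyp26b1, which clears retinoic acid and is itself a retinoic acid target, rose by 0.45 (SE 0.15, limma adjusted p = 0.0320 with Benjamini-Hochberg) from a low level of 1.94 ± 0.17 log2 CPM (SD, n = 5). The enzymes that fell were Dhrs9, with a log2 fold change of -0.43 (SE 0.16), Dhrs3 with -0.34 (SE 0.07) and Rdh11 with -0.32 (SE 0.07). Dhrs3, which returns retinaldehyde to retinol, was the most abundant of these in reads, with 8003 to 12091 per mouse. The other retinaldehyde dehydrogenases Aldh1a2 and Aldh1a3 did not pass, with log2 fold changes of 0.06 (SE 0.13) and 0.32 (SE 0.17). The retinol esterifying enzyme gene Lrat and the carotene cleaving enzyme gene Bco1 were not listed.

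Of 12 further receptor and cofactor genes 11 were listed, and 6 rose, 1 fell and 4 did not pass. The RXR genes encode the partners of the RAR receptors. Rxrg had 2.98 ± 0.32 log2 CPM (SD, n = 5) in controls and 3.86 ± 0.14 (SD, n = 6) in treated mice. Its log2 fold change was 0.88 (SE 0.13, limma adjusted p = 0.00024 with Benjamini-Hochberg). Rxra rose by 0.35 (SE 0.06, limma adjusted p = 0.000773 with Benjamini-Hochberg), while Rxrb fell by 0.13 on the log2 scale (SE 0.04, limma adjusted p = 0.0280 with Benjamini-Hochberg). The receptor interacting corepressor gene Nrip1 rose by 0.70 (SE 0.13). The coactivator genes Ncoa1 and Ncoa2 rose by 0.26 (SE 0.04) and 0.16 (SE 0.05), and the corepressor gene Ncor1 by 0.15 (SE 0.05). The third retinoic acid receptor gene, Rarb, did not pass, with a log2 fold change of -0.16 (SE 0.15).

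Of 12 genes known to respond to retinoic acid 7 were listed, and 3 rose, 1 fell and 3 did not pass. Rarres2, which encodes the adipokine chemerin, rose by 0.56 on the log2 scale (SE 0.09, limma adjusted p = 0.000394 with Benjamini-Hochberg), with a mean of 8.33 ± 0.15 log2 CPM (SD, n = 5) in controls. Tgm2, a transglutaminase gene, rose by 0.47 (SE 0.06, limma adjusted p = 7.88e-05 with Benjamini-Hochberg) from 8.99 ± 0.08 log2 CPM (SD, n = 5). Both were without overlap between groups (exact permutation p = 0.00216 for each). Cyp26b1 and Dhrs3, given above, are also on this list and moved in opposite directions. Rarb, Rarres1 and Rai14 did not pass, with log2 fold changes from -0.17 to 0.02.

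**Figure D4:**
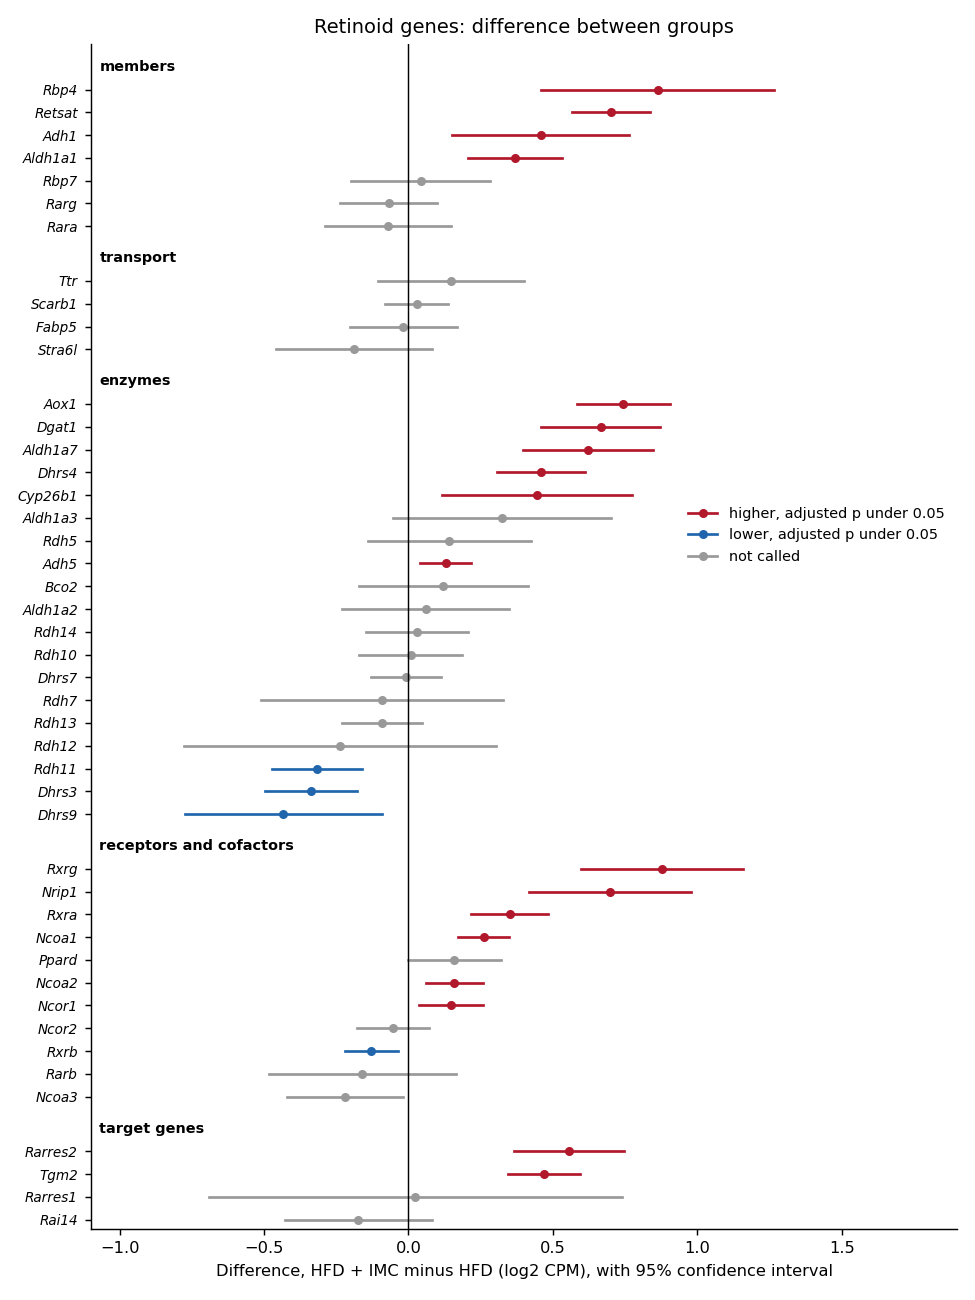
Difference between HFD + IMC and HFD in log2 CPM for the retinoid handling genes (members) and the wider retinoid list, with 95% confidence intervals from limma. Red marks genes called higher and blue genes called lower at a Benjamini-Hochberg adjusted p under 0.05. The RXR genes Rxrg and Rxra stand at 0.88 and 0.35, while Rarb, Rara and Rarg lie at or under 0.

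For each gene, the 3 genes of the table most like it were found by Pearson r of the log2 level over the 11 mice after the group means were removed. These are descriptions over few mice that share tissue makeup, with no test. Rbp4 was most like Tmem45b (r = 0.981), Pla2g16 (r = 0.974), which encodes an adipocyte phospholipase, and C030006K11Rik (r = 0.965). Retsat was most like Acadm (r = 0.936), a gene of fatty acid oxidation, Kcns3 (r = 0.925) and Fam126b (r = 0.923), and all 3 of these were higher with IMC, by log2 fold changes of 0.59, 0.89 and 0.60. Adh1 was most like Cyp2d22 (r = 0.974), Dync2h1 (r = 0.970) and Tanc1 (r = 0.966), of which only Tanc1 passed the limma test. Aldh1a1 was most like Myh10 (r = 0.885), Cyp2e1 (r = 0.863) and Mga (r = 0.839), the lowest likeness of the 7 genes. Rbp7 was most like Adarb1 (r = 0.959), Coq6 (r = 0.950) and Mylip (r = 0.947). Rara was most like Tomm70a (r = 0.936), Ptms (r = 0.928) and Hist3h2a (r = 0.915), and Rarg was most like the laminin gene Lamb1 (r = 0.959), Abca9 (r = 0.936) and Emilin2 (r = 0.932).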

How the data were processed

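RNA of gonadal WAT from 5 HFD and 6 HFD + IMC mice was sequenced by the authors from directional mRNA libraries, 1 per mouse. The authors used Trim Galore for trimming, STAR for alignment to mm10 and counting over UCSC transcripts, and edgeR for upper quartile scaling after removal of weakly expressed genes. The authors deposited log2 CPM values per gene and mouse. The table also holds their own fold changes, test statistics and p-values, which were not used. No column belonged to another sample (0 columns).

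Groups came from the sample labels. The deposited log2 CPM were compared with limma 3.58.1 (lmFit and eBayes with trend) in R 4.3.3 over all 12787 genes, with the group as the only factor, Benjamini-Hochberg adjustment over all genes and a threshold of 0.05. Single values per mouse were tested by exact permutation (two-sided), which cannot give a p below 0.00216 here. Levels relative to the adipocyte markers were planned with adjustment over the 7 genes. That was replaced by the same limma fit over all genes. P-values set a difference of group means against the spread between mice. The paper reports group housing, and cage did not enter any fit, so mice were treated as independent. The 7 genes, the wider lists and the markers were chosen with earlier results of these data known. Some genes of the wider lists are not reported here and stay out of their counts. Genes named are the 7, wider list genes past the threshold and those a count needs, and the 3 genes most like each of the 7.

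Every deposited value corresponded to a whole number of reads (tolerance 0.05 reads), which gave 22320022 to 23635249 reads on listed genes per HFD library and 22619505 to 25155366 per HFD + IMC library. No listed gene had fewer than 5 reads, and reads are not independent molecules, so read numbers speak to counting error only. Promoters and coordinates are RefSeq, GRCm38.p6 (the build of mm10), and all 7 genes matched. Exon lengths are from GENCODE on the same build. The fit, the exact test and the recovery of reads were first tested on simulated data. Alternatives were other variance models, a filter on low levels, other scalings, limma voom on the recovered reads, 2 added reads, other marker references, and each mouse left out. Tables and figures used Python 3.11.15, numpy 2.4.6, pandas 2.3.3 and matplotlib 3.10.9.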

Additional observations from a re-analysis of the deposited data

Results flagged for a closer look

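A mouse far from the rest of its group was looked for in 112 groups of 5 or 6 values, and 5 (4.46%) were found, where chance gives about 1 in 20 groups. IMC mouse 2 had an Aldh1a1 level of 7.63 log2 CPM, with the other treated mice between 7.14 and 7.27. The log2 ratio of Rbp4 to Rbp7 was 3.73 in IMC mouse 1 and between 2.90 and 3.13 in the other treated mice. The log2 ratio of Adh1 to Aldh1a1 was 0.24 in IMC mouse 6, the single treated mouse with more Adh1 than Aldh1a1, and between -0.53 and -0.31 in the others. Of the wider list, Ncoa1 was 6.26 log2 CPM in IMC mouse 5 (the others 6.11 to 6.14) and Tgm2 was 9.64 log2 CPM in IMC mouse 4 (the others 9.40 to 9.46).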

How the results depend on the processing

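Under the 7 other settings over all genes (variance model, filter, scaling, voom, added reads), 4 of the 7 retinoid handling genes were called higher and 0 lower, as in the main comparison. Of the wider list, 11 to 14 were called higher and 3 to 5 lower under these settings. Scaling to total reads gave the 11 higher and the 5 lower. Leaving out 1 mouse at a time, the log2 fold change was 0.76 to 0.97 for Rbp4, 0.67 to 0.74 for Retsat, 0.30 to 0.40 for Aldh1a1, 0.37 to 0.53 for Adh1, -0.031 to 0.083 for Rbp7, -0.13 to -0.02 for Rara and -0.12 to -0.02 for Rarg. Adh1 lost its call without HFD mouse 1 (0.39). Rbp7, not called, turned to -0.027 without HFD mouse 3 and to -0.031 without IMC mouse 6. With each mouse left out, the count of members called higher was 3 to 4, of the wider list 11 to 14 higher and 2 to 4 lower. The difference of the Rara to Rarg ratio was -0.089 to 0.070, changing sign without HFD mouse 1 or 5 or IMC mouse 3, 4 or 5, of Rbp4 to Rbp7 0.71 to 0.89, and of Adh1 to Aldh1a1 -0.019 to 0.16, negative without IMC mouse 6. Relative to the adipocyte markers, Rbp4 differed by -0.095 to 0.019 with each mouse left out. It differed by 0.011 with the median of the markers in place of their mean, and by -0.15 with Adipoq and Plin1 alone (limma adjusted p = 0.343 with Benjamini-Hochberg). Retsat differed by -0.26 to -0.17 with each mouse left out and by -0.15 with the marker median. With Adipoq and Plin1 alone it differed by -0.31 (limma adjusted p = 0.0510 with Benjamini-Hochberg). The cause was not tested. Adding Aldh1a7 reads to Aldh1a1, and adjusting relative levels over all genes, were chosen after seeing the data. No paired analysis was possible because mouse numbers do not link mice of the groups. Each of the 7 genes had at least 337 reads per mouse.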
